A study of Mus musculus with 5 samples.

Results

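The RGS family (regulators of G protein signalling) was examined in mouse sympathetic neurons at E14.5, with *Rgs4* as its leading gene. The set of 10 genes comprised *Rgs2*, *Rgs3*, *Rgs4*, *Rgs5*, *Rgs7*, *Rgs8*, *Rgs10*, *Rgs12*, *Rgs16*, and *Rgs17*. It was selected on the counts of these 5 libraries: *Rgs4* was chosen by its log2 fold change between genotypes, and the rest of the family was added with results of that comparison known, so the values of these genes in that comparison are a description and carry no test. Of the 10 genes, 9 were matched by Ensembl identifier to the 20224 genes of the count table, and 8 passed the filter on low counts. *Rgs8* did not pass it, and *Rgs16* was not analysed here.

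The libraries were made from sorted cells of stellate ganglia and the thoracic sympathetic chain of embryos from non-diabetic pregnancies, with replicates 5 and 6 for the 2 control libraries and replicates 3, 4, and 5 for the 3 *Hif1aCKO* libraries. *Hif1aCKO* embryos had the genotype *Hif1a* loxP/loxP with *Isl1Cre* and the tdTomatoAi14 reporter, and controls had the genotype *Hif1a* loxP/+ with the same Cre and reporter. All carried the Prph-eGFP transgene, which marks peripheral neurons. The Cre was a knock-in at *Isl1* inherited from the father, on an FVB background, and the floxed line was on a mixed C57BL/6J and C57BL/6N background. The labels give the control genotype with Cre for the reporter line that was sorted, whereas the design text of the series describes controls that lack the Cre. The former was used here, because tdTomato is switched on by Cre. The controls would then share the Cre with the mutants and carry 1 floxed allele, and recombination took place in the cells that express or had expressed *Isl1*. Each library held 100 cells positive for both eGFP and tdTomato. The labels call each a biological sample but do not say whether embryos were pooled, so the spread between libraries is that of these samples.

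RGS proteins bind active G alpha subunits and speed the hydrolysis of GTP, which ends the signal of a G protein-coupled receptor sooner. The R4 subfamily (*Rgs2*, *Rgs3*, *Rgs4*, *Rgs5*, *Rgs8*, and *Rgs16*) is made mostly of small proteins that are little more than the RGS domain, whereas R7 members form a complex with the G beta subunit *Gnb5*. The R12 subfamily holds *Rgs10* and *Rgs12*, and the RZ subfamily holds *Rgs17*. *Rgs4*, *Rgs5*, and *Rgs16* proteins begin with methionine and cysteine. After the methionine is removed, the cysteine can be oxidized, and the protein is then marked for degradation, so that these RGS proteins are lost when oxygen is present and accumulate when it is scarce.

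The start of the coding sequence shows which members carry this oxygen-dependent degradation signal. The first 30 coding bases were read from GENCODE release M21 (GRCm38), 5′ to 3′ on the coding strand, with the second codon in capitals. The 3 genes with a cysteine codon (TGC or TGT) are shown with *Rgs2* and *Rgs17*, an R4 and an RZ member without it.
Rgs4: atgTGCaaaggacttgcaggtctgccggct
Rgs5: atgTGTaagggactggcagctctgccgcac
Rgs16: atgTGCcgcaccctagccaccttccccaac
Rgs2: atgCAAagtgccatgttcctggctgtccag
Rgs17: atgGGGttcttctccaaaaaattattgcta
These starts lie at chr1:169747494-169747523 on the minus strand for *Rgs4*, at chr1:169655578-169655607 on the plus strand for *Rgs5*, and at chr1:153740469-153740498 on the plus strand for *Rgs16*. The start of *Rgs2* lies at chr1:144004089-144004118 and that of *Rgs17* at chr10:5918189-5918218, both on the minus strand. Of 21 RGS genes with a complete coding sequence in the annotation, 3 had a cysteine codon in the second position. Over all 21569 genes with a complete coding sequence, 195 (0.904%) had one.

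The libraries held 8254211 to 9700887 counts each, and 15032 genes were kept by the filter and tested. Values below are counts normalized for library size (TMM), and levels of different genes are compared only per kilobase of merged exons. *Hif1a* itself had 2086 and 1584 normalized counts in controls and 2747, 1757, and 2135 in *Hif1aCKO* libraries, but loss of the floxed exon 2 cannot be read from counts over a whole gene. The 12 sympathetic neuron markers all had counts, with summed levels of 88578 and 107773 in controls and 82198, 78913, and 79207 in *Hif1aCKO* libraries. Of these 12, 6 were lower and 1 was higher without overlap between the groups, against 12.9% of all tested genes in each direction. The 10 mitosis genes had a higher level in *Hif1aCKO*, with sums of 16731 and 15200 against 23571, 30356, and 23577. This list was written with earlier results of these data known. The study names *Cdc20*, *Ccnb1*, *Kif23*, *Cenpe*, *Cenpf*, and *Mki67* as upregulated in these same libraries, so nothing is read from the higher sums. The part of the mitosis genes in the values of the RGS genes was not tested. In bulk libraries, fewer cells of a type and less RNA per cell cannot be told apart.

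*Rgs4* was the most abundant RGS gene in every library. Per kilobase of exon, its mean level was 2327 ± 1702 normalized counts (SD, n = 5), which placed it at rank 138 of 20195 genes with a length, above 99.3% of them. Within the set, *Rgs5* followed with 167 ± 132, *Rgs7* with 95.4 ± 27.1, and *Rgs2* with 75.9 ± 15.9 normalized counts per kilobase. Next in the order of levels were *Rgs10* (48.8 ± 11.7), *Rgs12* (41.9 ± 4.84), *Rgs17* (22.2 ± 7.65), *Rgs3* (9.09 ± 2.03), and *Rgs8* (0.976 ± 1.77), on the same scale. *Rgs19*, which is outside the set and was not placed in this order, had 158 ± 20.5. The ranges over the 5 libraries did not overlap between *Rgs4* and *Rgs5*, *Rgs12* and *Rgs17*, *Rgs17* and *Rgs3*, or *Rgs3* and *Rgs8*. They overlapped between all other neighbours, although within each library *Rgs2* stood above *Rgs10* in 5 of 5. *Rgs10* stood above *Rgs12* in 4 of 5 libraries, and *Rgs5* above *Rgs7* and *Rgs7* above *Rgs2* in 3 of 5 each. With the length of the longest annotated transcript in place of merged exons, *Rgs10* stood above *Rgs2*.

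**Figure D1:**
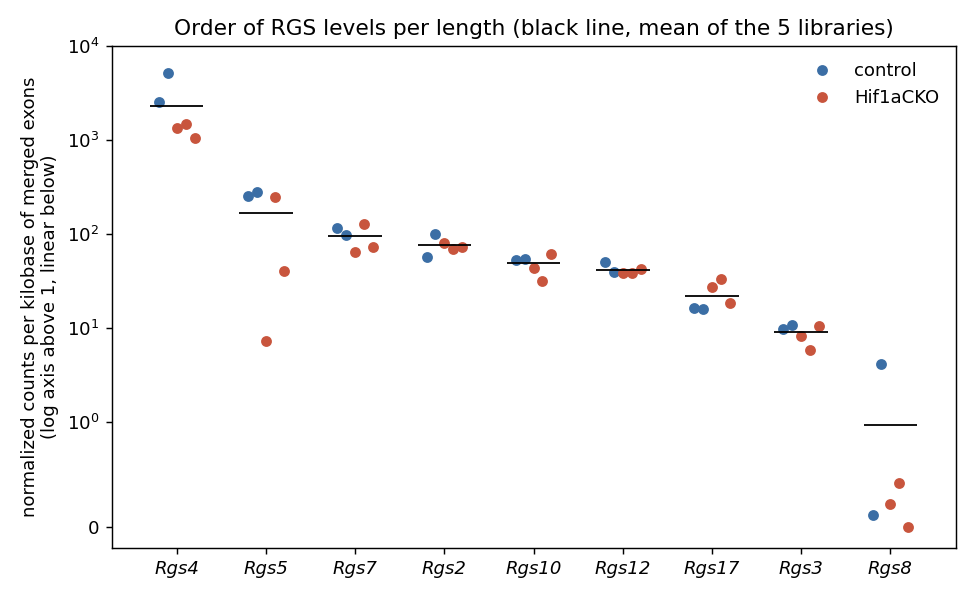
Level of each RGS gene in each library, as normalized counts per kilobase of merged exons (log axis above 1, linear below), for 2 control and 3 *Hif1aCKO* libraries. All 5 points of *Rgs4* lie between 1062 and 5205, above every point of the other genes, and those of *Rgs5* spread from 7.31 to 283.

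*Rgs4* also outweighed the other measured members together. Its level per kilobase was 4.53 and 8.62 times their sum in control replicates 5 and 6. In *Hif1aCKO* replicates 3, 4, and 5, this ratio was 4.97, 2.7, and 3.31. The ratios of the groups overlapped, because that of *Hif1aCKO* replicate 3, where *Rgs5* was low, lay above that of control replicate 5.

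*Rgs4* (ENSMUSG00000038530, chr1:169741477-169747642, minus strand), an R4 protein that acts on the Gi/o and Gq classes, had 7839 and 16124 normalized counts in control replicates 5 and 6. In *Hif1aCKO* replicates 3, 4, and 5, it had 4154, 4638, and 3290 normalized counts. All mutant libraries lay below both controls, and the controls differed from each other by a factor of 2.06, more than the factor of 1.41 between the highest and lowest mutant library. The means were 11981 ± 5858 (SD, n = 2) and 4027 ± 683 (SD, n = 3), and the log2 fold change was -1.57 (SE 0.27). Without control replicate 6, the log2 fold change of *Rgs4* was -0.97, and without control replicate 5 it was -2.00. Leaving out a *Hif1aCKO* library gave -1.69 to -1.45.

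The controls were further apart for *Rgs4* than the mutants were. Its log2 range in controls was 1.04, and 5.58% of the 10842 tested genes with a mean of at least 50 normalized counts had a control range at least as wide. Within *Hif1aCKO* its log2 range was 0.50, and 52.9% of these genes had one at least as wide. *Xist* counts were high in control replicate 5 and *Hif1aCKO* replicate 3, whereas *Ddx3y* counts were high in the other libraries, so the embryos differed in sex. Among libraries with *Xist* counts, the log2 ratio of *Hif1aCKO* to control for *Rgs4* was -0.92 (1 library in each group). Among those with *Ddx3y* counts it was -2.02 (1 control and 2 *Hif1aCKO* libraries).

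**Figure D2:**
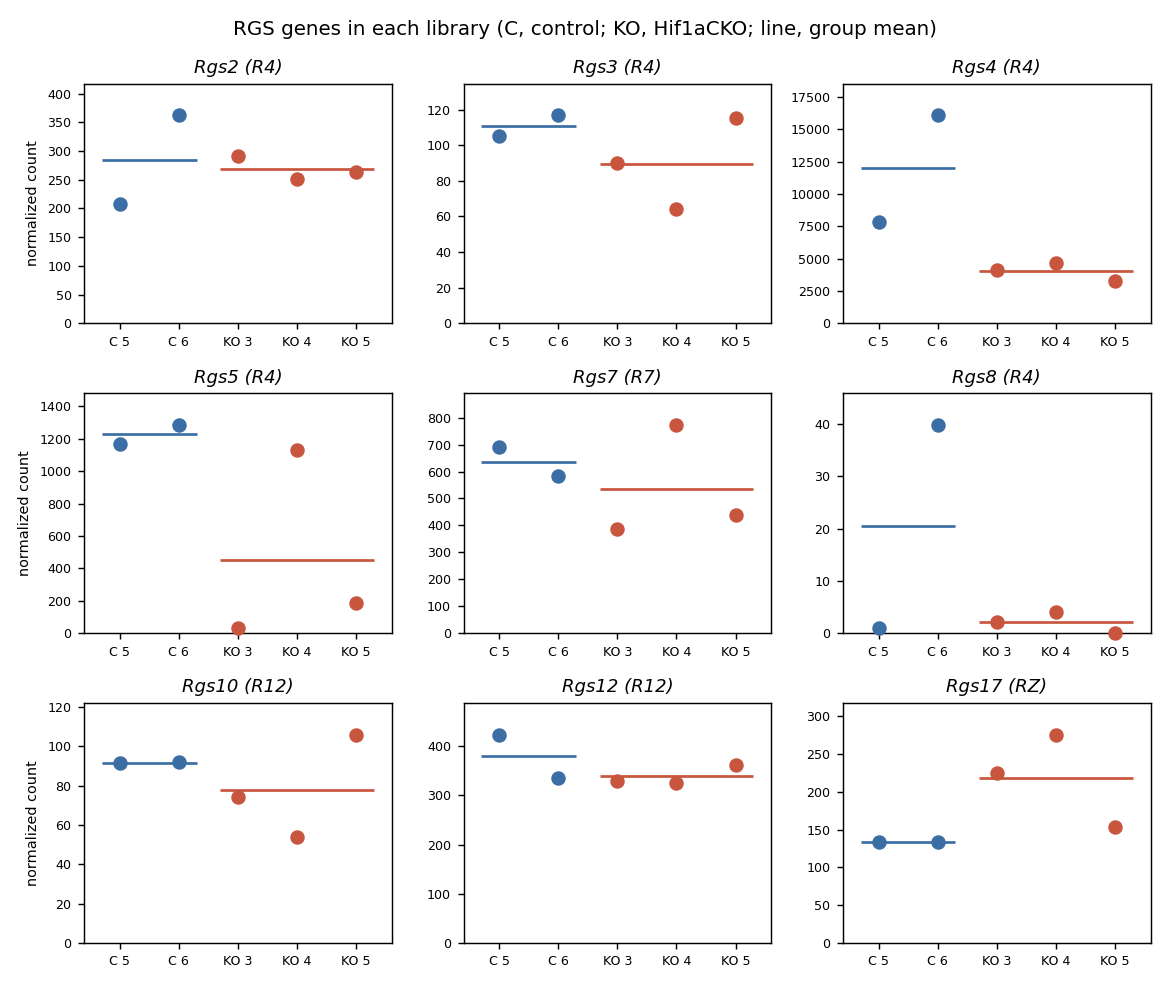
Normalized counts (y axis, from 0, with its own scale in each panel) of 9 RGS genes in control replicates 5 and 6 and *Hif1aCKO* replicates 3, 4, and 5, with lines at the group means. The mutant points of *Rgs4* lie below both controls, those of *Rgs17* lie above both, and those of *Rgs5* range from 33.2 to 1128.

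The window upstream of *Rgs4* is shown because the description turns on this gene. The 250 bases before its transcript start (RefSeq, GRCm38.p6, chr1:169747643-169747892, minus strand) are given 5′ to 3′, with capitals for the match to the core of the HIF binding motif, searched as ACGTG or GCGTG on both strands.
Rgs4 promoter: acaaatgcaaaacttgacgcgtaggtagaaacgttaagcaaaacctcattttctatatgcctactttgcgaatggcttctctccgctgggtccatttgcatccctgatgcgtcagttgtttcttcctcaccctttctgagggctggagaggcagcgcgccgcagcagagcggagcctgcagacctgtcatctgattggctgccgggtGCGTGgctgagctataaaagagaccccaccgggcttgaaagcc
The match begins at position -43 from the start. In the window from 250 bases before to 50 after the start, 14380 of 32851 promoters (43.8%) held this core. The windows of *Rgs2*, *Rgs7*, *Rgs16*, and *Rgs17* also held it, as did 2 of the 3 windows of *Rgs8*, and those of *Rgs3*, *Rgs5*, *Rgs10*, and *Rgs12* did not. A match in such a window is a description of letters, and binding was not measured.

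*Rgs5* (ENSMUSG00000026678, chr1:169655501-169695813, plus strand) is the R4 gene next to *Rgs4*, 45664 bases away, and is widely used as a marker of pericytes. It had 1168 and 1287 normalized counts in control replicates 5 and 6. In *Hif1aCKO* replicates 3, 4, and 5, it had 33.2, 1128, and 186. The groups did not overlap, but *Hif1aCKO* replicate 4 was close to the controls and replicate 3 was far below them. The control mean was 1228 ± 84.7 (SD, n = 2), the *Hif1aCKO* mean 449 ± 593 (SD, n = 3), and the log2 fold change -1.45 (SE 0.99). Without *Hif1aCKO* replicate 4 the log2 fold change of *Rgs5* was -3.48, and without replicate 3 it was -0.90.

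Among the mutants, *Rgs5* was one of the most variable genes of these data. Its log2 range within *Hif1aCKO* was 5.04, and 0.304% of the 10842 genes with a mean of at least 50 had a range at least as wide, whereas its range in controls was 0.14. The 6 of 10 pericyte and smooth muscle markers with a matched identifier summed to 139 and 48.2 normalized counts in controls and to 76.1, 117, and 65.2 in *Hif1aCKO* libraries. *Pdgfrb*, a defining pericyte receptor, was at 0 in 3 libraries and at most 1.95 normalized counts. *Tagln* (21.3 to 77.9) and *Abcc9* (7.78 to 80.2) had counts in every library, but 62.4% of the exonic bases of *Tagln* are shared with the antisense gene *Gm48529*. *Notch3*, *Vtn*, and *Myh11* had at most 11.1. The listed markers *Cspg4*, *Kcnj8*, *Anpep*, and *Acta2* were not analysed here, and the part of pericytes in the *Rgs5* values was not tested. The glial list stood out in *Hif1aCKO* replicate 3, where *Rgs5* was lowest, with a sum of 1273 normalized counts for the 5 matched genes of 8 against 123 to 356 in the other libraries. Of this sum, 993 came from *Fabp7*, and its part in the *Rgs5* value was not tested.

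Both *Rgs4* and *Rgs5* begin with the cysteine codon, and no other measured member does. Their patterns over the libraries differed: Pearson's r between them was 0.63 over the 5 libraries, on log2(normalized count + 1). *Rgs4* was at a similar level in all mutants, and *Rgs5* was not.

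*Rgs2* (chr1:143999338-144004161), which acts mainly on Gq, had 207 and 363 normalized counts in controls. It had 292, 251, and 264 in *Hif1aCKO* libraries. All mutant libraries lay between the controls, and the log2 fold change was -0.09 (SE 0.29). It was -0.44 without control replicate 5 and 0.37 without control replicate 6.

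*Rgs3*, a larger R4 member with long and short isoforms, had 105 and 117 normalized counts in controls and 90.1, 63.9, and 115 in *Hif1aCKO* libraries. The groups overlapped, and the log2 fold change was -0.31 (SE 0.39). *Rgs8*, an R4 gene known from Purkinje cells, had 1.04 and 39.9 normalized counts in controls and 2.14, 3.99, and 0 in *Hif1aCKO* libraries. Its signal came almost wholly from control replicate 6, which was also the library with the most *Rgs4*, and no fold change is given.

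*Rgs7* (chr1:175059087-175492500), the R7 member of the set, acts on Go and needs *Gnb5* for its stability. It had 691 and 582 normalized counts in controls and 387, 774, and 439 in *Hif1aCKO* libraries. The groups overlapped, since *Hif1aCKO* replicate 4 was the highest of all libraries and the other mutants were the lowest. The log2 fold change was -0.25 (SE 0.30), with a range of -0.62 to -0.07 when 1 library was left out.

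Of the R12 genes, *Rgs10* encodes a short protein that acts on the Gi class and is abundant in microglia. It had 91.7 and 91.8 normalized counts in controls and 74, 53.9, and 106 in *Hif1aCKO* libraries. The groups overlapped, and the log2 fold change was -0.23 (SE 0.43). The 2 macrophage markers with a matched identifier out of 8, *Csf1r* and *Adgre1*, summed to 46.9 and 83.5 in controls and to 133, 182, and 182 in *Hif1aCKO* libraries. *Rgs12* encodes a large scaffold with several domains beside the RGS domain, and had 424 and 335 normalized counts in controls and 329, 326, and 363 in *Hif1aCKO* libraries. The groups overlapped, and the log2 fold change was -0.16 (SE 0.22). Of its exonic bases, 5.5% are shared with the antisense gene *Gm43791*, and strand is not mentioned for the counting. Antisense sharing was larger for some other genes named here, such as *Tagln* (62.4%), *Gng2* (20.4%), and *Hand2* (19.6%).

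*Rgs17*, an RZ member that acts on Gz and the Gi class, was the only tested member with a fold change above 0. It had 134 and 133 normalized counts in controls. In *Hif1aCKO* libraries it had 225, 276, and 154, and all mutants lay above both controls. The means were 133 ± 1.22 (SD, n = 2) and 218 ± 61.2 (SD, n = 3), and the log2 fold change was 0.71 (SE 0.33). It stayed between 0.50 and 0.91 when 1 library was left out, and the log2 ratio was 0.74 among libraries with *Xist* counts and 0.69 among those with *Ddx3y* counts.

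**Figure D3:**
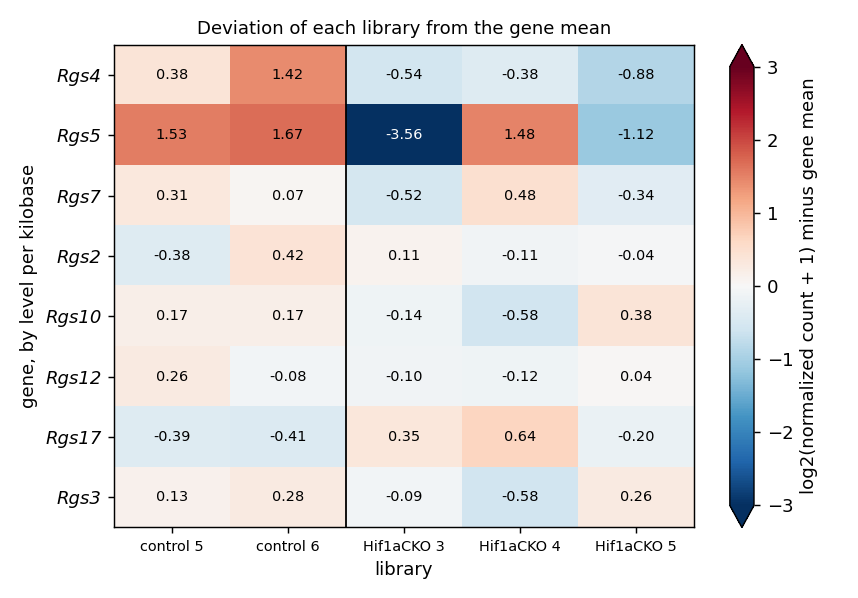
Heat map of 8 RGS genes (rows, by level per kilobase) over the 5 libraries (columns), as log2(normalized count + 1) minus the gene's mean, with a line between the genotypes. *Rgs4* is above its mean in both controls and below it in all mutants, *Rgs5* falls to -3.56 in *Hif1aCKO* replicate 3 but stands at 1.48 in replicate 4, and *Rgs17* has its lowest values in the controls.

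Over the 8 members that passed the filter, 7 had a log2 fold change below 0 and 1 above, with a median of -0.24. Of all tested genes, 48.7% were below 0 and the median was 0.01. The groups did not overlap for 3 of the 8 (*Rgs4* and *Rgs5* lower, *Rgs17* higher), against 25.7% of all tested genes, 12.9% in each direction. To be called, a gene needed a mean of at least 50 normalized counts, a log2 fold change beyond 0.3 in either direction, and an adjusted p-value under 0.05. The edgeR quasi-likelihood test called none of the 8 and 0 of 15032 genes (0%), with a smallest Benjamini-Hochberg adjusted p-value of 0.446. At an unadjusted p-value under 0.05, it had 1 member lower, against 578 of all tested genes (3.85%) lower and 575 (3.83%) higher. DESeq2 called 1 member, *Rgs4*, against 60 of 15478 genes (0.388%). The rule that chose the members used this contrast, so nothing is read from these counts.

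The RGS genes outside the set had few counts, apart from *Rgs19*. Of these 11 genes, 6 had a matched identifier and 5 were tested, with 2 below and 3 above 0 and a median log2 fold change of 0.01. None had an unadjusted p-value under 0.05 with edgeR. *Rgs19*, an RZ gene, had 298 and 339 normalized counts in controls and 418, 335, and 377 in *Hif1aCKO* libraries, and its groups overlapped. *Rgs6*, an R7 gene, had 31.2 and 28.8 against 9.65, 13, and 0, which did not overlap, with a log2 fold change of -1.98 (SE 1.25). *Rgs9* and *Rgs11*, the other R7 genes, had at most 73.9 and 81.2 normalized counts in any library, *Rgs20* at most 13, and *Rgs22* at most 4.17, and in all of them the groups overlapped.

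**Figure D4:**
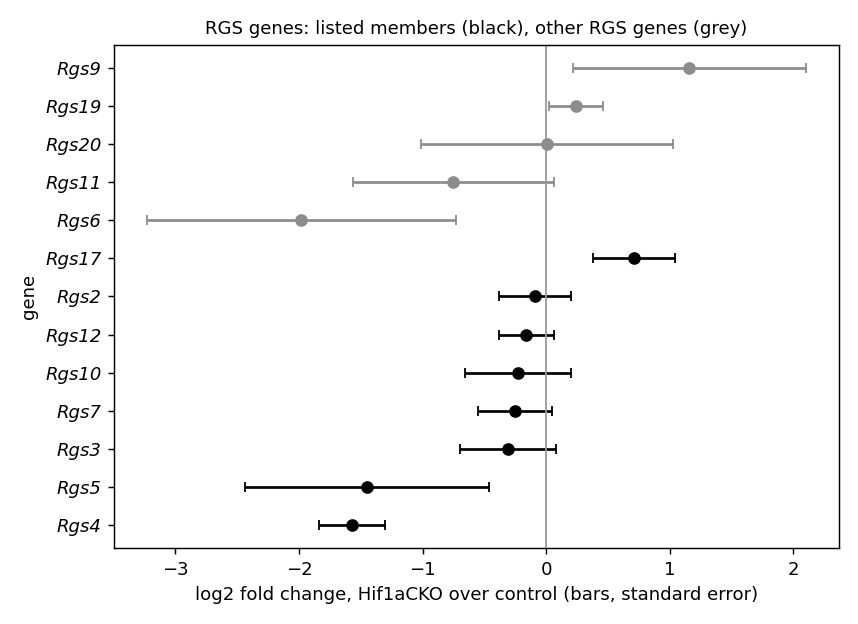
Log2 fold change of *Hif1aCKO* over control (x axis, bars show the standard error) for 8 members of the set (black) and 5 other RGS genes (grey). *Rgs4* lies at -1.57 with a short bar, *Rgs5* at -1.45 with a long bar, and *Rgs17* at 0.71. The bars are derived from the test statistic, and the controls of *Rgs4* differed by a factor of 2.06.

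The partners of RGS proteins were examined in lists written with earlier results of these data known. These lists were counted together with the RGS genes outside the set, the RGS-like domain genes, and the sympathetic transcription factors. In all, 96 genes were tested, with 48 below and 48 above 0. edgeR called none after Benjamini-Hochberg adjustment, and 14 had an unadjusted p-value under 0.05, against 7.67% of all tested genes. DESeq2 called 2 of them, the transcription factors *Isl1* and *Gata2*, against 0.388% of all genes it tested. It called none of the R7 partners, G protein subunits, receptors, effectors, or genes of the cysteine degradation pathway. Without *Hif1aCKO* replicate 3 this number of 14 was 24, while the number over all tested genes went from 1153 to 1773.

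The R7 partners hold *Rgs7* in a stable and anchored complex. Of 5 genes, 4 were tested, and 2 were lower at an unadjusted p-value under 0.05, against 3.85% of all tested genes. *Gnb5*, the obligate partner of *Rgs7*, had 650 and 833 normalized counts in controls and 452, 247, and 506 in *Hif1aCKO* libraries, with a log2 fold change of -0.88 (SE 0.30, unadjusted p = 0.0186, adjusted p = 0.621, edgeR). *Gpr158*, an orphan receptor that binds *Rgs7* at the membrane, had 51 and 48.2 in controls and 17.2, 4.99, and 7.78 in *Hif1aCKO* libraries (log2 fold change -2.30, SE 0.78, unadjusted p = 0.0178, adjusted p = 0.621, edgeR). For both, all mutants lay below both controls, as they did for 12.9% of all tested genes, whereas *Rgs7* overlapped between the groups. The mean of *Gpr158* over all libraries was 25.8, below the 50 needed for a call. *Rgs7bp*, the membrane anchor of R7 proteins, had 21.9 and 16.7 against 31.1, 9.99, and 98.3 normalized counts and overlapped.

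The G alpha subunits are the substrates of RGS proteins. Of 11 tested, 8 were below and 3 above 0, and 1 had an unadjusted p-value under 0.05, against 7.67% of all tested genes. This was *Gna13*, with 582 and 491 against 354, 427, and 367 normalized counts (log2 fold change -0.49, SE 0.20, unadjusted p = 0.0415, adjusted p = 0.637, edgeR). The substrates of *Rgs4* were present in all libraries. *Gnai3* had 4666 and 4573 in controls and 4404, 2662, and 3100 in *Hif1aCKO* libraries, which did not overlap (log2 fold change -0.45, SE 0.20). *Gnao1* had 754 to 1156 and *Gnaq* 1070 to 1297 normalized counts, and both overlapped. *Gnas*, the stimulatory subunit that classical RGS proteins do not act on, had 22728 and 22912 against 16806, 27006, and 24998, and overlapped.

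Among 13 G beta and gamma subunits tested, 9 were below and 4 above 0. *Gnb3* had 862 and 787 against 522, 574, and 547 normalized counts (log2 fold change -0.59, SE 0.16, unadjusted p = 0.00672, adjusted p = 0.598, edgeR). *Gng2* had 3266 and 3768 against 3213, 2337, and 2306 (log2 fold change -0.43, SE 0.18, unadjusted p = 0.0422, adjusted p = 0.637, edgeR).

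Of the 37 receptors listed, 19 were tested, with 11 below and 8 above 0. *Ptger3*, a Gi-coupled prostaglandin receptor, had 357 and 274 normalized counts in controls and 545, 874, and 504 in *Hif1aCKO* libraries (log2 fold change 1.02, SE 0.29, unadjusted p = 0.00728, adjusted p = 0.598, edgeR). *Ednra*, a Gq-coupled endothelin receptor, had 112 and 86.3 against 17.2, 31, and 0 (log2 fold change -2.62, SE 1.09, unadjusted p = 0.0423, adjusted p = 0.637, edgeR). *Adora2a*, a Gs-coupled adenosine receptor, had 14.6 and 95.5 against 1.07, 0, and 0, and no fold change is given for these low counts. None of these 3 overlapped between the groups, but they were named for their low unadjusted p-values. Of the 19 receptors tested, 4 were lower without overlap and 1 was higher without overlap. Among all tested genes, 12.9% were without overlap in each direction.

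Among 13 effectors tested, 4 were below and 9 above 0. *Kcnq5*, a subunit of the M-type potassium channel that Gq signalling closes, had 40.6 and 33.4 against 90.1, 92.9, and 126 normalized counts (log2 fold change 1.47, SE 0.44, unadjusted p = 0.00944, adjusted p = 0.598, edgeR). *Plcb4*, a phospholipase C activated by Gq, had 2713 to 2929 normalized counts in all libraries, with a log2 fold change of 0.02 (SE 0.12).

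The cysteine degradation pathway, which acts on *Rgs4* and *Rgs5* proteins, was expressed in all libraries. Its 8 genes were all tested, 3 below and 5 above 0. *Ado*, the dioxygenase that oxidizes the cysteine, had 2308 and 2853 normalized counts in controls and 2624, 1558, and 1763 in *Hif1aCKO* libraries, and overlapped. *Ate1*, which adds arginine to the oxidized end, had 751 and 859 against 718, 463, and 446 (log2 fold change -0.57, SE 0.24, unadjusted p = 0.0444, adjusted p = 0.638, edgeR). RNA counts do not show the level of RGS proteins. The 14 genes that share an RGS-like domain outside the family, such as Axin and Grk genes, had no unadjusted p-value under 0.05 (4 below and 10 above 0).

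**Figure D5:**
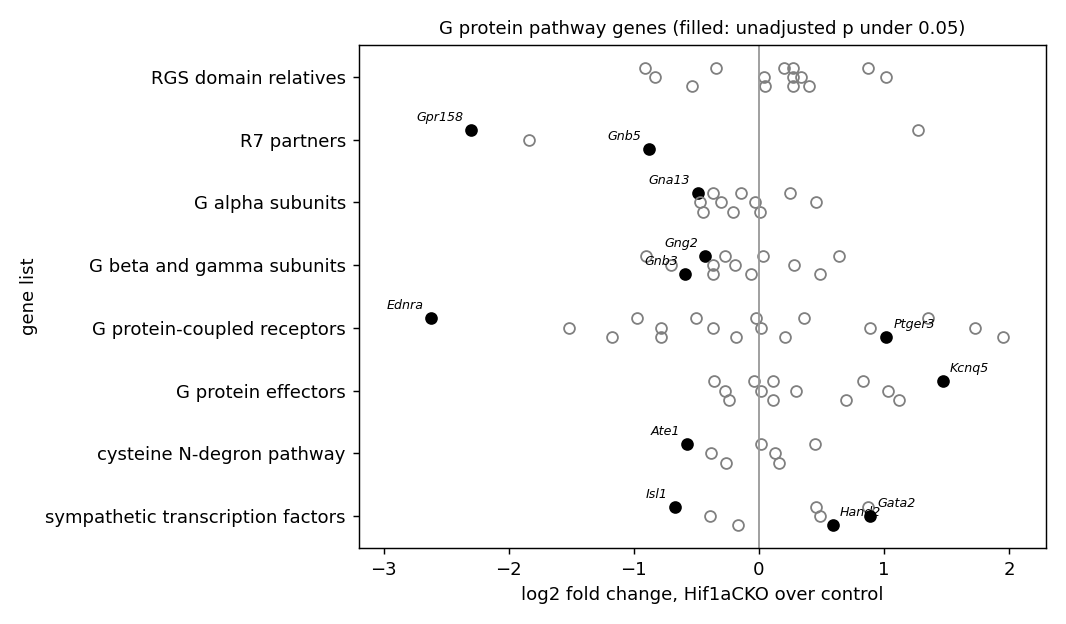
Log2 fold change of *Hif1aCKO* over control (x axis) for tested genes of 8 lists of RGS partners and sympathetic transcription factors, with filled points for an unadjusted p-value under 0.05 (edgeR) with *Adora2a* left out because of its low counts and 2 genes not reported here. In each list the points lie on both sides of 0, and the filled R7 partners, *Gnb5* and *Gpr158*, lie at -0.88 and -2.30.

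Factors that set sympathetic identity were compared as well. *Isl1* had 12577 and 14019 against 8634, 7800, and 8722 (log2 fold change -0.67, SE 0.10), and *Gata2* had 869 and 705 against 1245, 1546, and 1594 (log2 fold change 0.89, SE 0.19). *Hand2* had 1292 and 1090 against 1486, 1974, and 1911 (log2 fold change 0.59, SE 0.18, unadjusted p = 0.0113, adjusted p = 0.599, edgeR). DESeq2 called *Isl1* lower and *Gata2* higher (adjusted p = 0.000214 and 0.00324), and edgeR called neither (adjusted p = 0.446 and 0.586). The Cre is a knock-in at *Isl1*. Both groups were sorted as tdTomato-positive, which needs the Cre, although the design text of the series describes controls without it. *Th*, the rate-limiting enzyme of noradrenaline synthesis, had 2998 and 6985 against 1682, 1515, and 2582 normalized counts, and so ranked the controls as *Rgs4* did. Pearson's r with *Rgs4* was 0.85 for *Th* and 0.90 for *Isl1*, chosen after their values were seen.

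Over the 10831 genes with a mean of at least 50 that have a name in the annotation and are not members of the set, the 5 with the highest Pearson's r with *Rgs4* over the 5 libraries were *Tmsb4x* (0.996), *Acvr2a* (0.994), *Tmco3* (0.994), *Cwc22* (0.994), and *Cxadr* (0.993). The 5 with the lowest were *Dhodh* (-0.998), *Donson* (-0.996), *Slc38a11* (-0.996), *Atp5j* (-0.996), and *Ssbp2* (-0.995). With 5 libraries, 100 genes had an r of at least 0.95 and 149 an r of -0.95 or less, so such values are common here. The changes in these genes were of very different size. *Tmsb4x*, the closest match, had 27731 and 29617 normalized counts in controls and 26308, 26646, and 25463 in *Hif1aCKO* libraries, a log2 fold change of -0.13 (SE 0.08), whereas *Slc38a11*, an amino acid transporter gene, had 153 and 64 against 437, 375, and 689, a log2 fold change of 2.21 (SE 0.44). Among the members, r with *Rgs4* was 0.84 for *Rgs8*, 0.63 for *Rgs5*, 0.43 for *Rgs2*, 0.39 for *Rgs7*, 0.38 for *Rgs3*, 0.20 for *Rgs10*, 0.09 for *Rgs12*, and -0.57 for *Rgs17*. These points share libraries and depth, and no p is given.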

How the data were processed

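Sorted sympathetic neurons were sequenced in 5 libraries, 2 control and 3 *Hif1aCKO*, of 100 cells each. The authors trimmed the reads (cutadapt 1.18, Trimmomatic), removed ribosomal and vector reads (Bowtie 1.2.2, SortMeRNA), mapped the rest to GRCm38 with STAR (2.7.0c), and counted uniquely mapped reads per gene with Rsubread. Versions are from the submitters' processing notes. The deposited values are these raw counts, with no normalization. The study states GENCODE release M8, and names, lengths, and positions here are from release M21, which holds 20195 of the 20224 identifiers.

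Libraries were grouped by the genotype in their titles. Genotypes were compared with the edgeR (4.0.16) quasi-likelihood test in R (4.3.3), with TMM, filterByExpr, and Benjamini-Hochberg adjustment over 15032 genes. The biological coefficient of variation was 0.384. Each SE was derived from the test, as the absolute log2 fold change over the square root of the F statistic. It is not the observed spread of the libraries. Normalized counts were divided by effective library size and scaled to its mean. Correlations used a pseudocount of 1. Tables and plots were made with Python (3.11.15), pandas (2.3.3), numpy (2.4.6), and matplotlib (3.10.9). Scripts were tested on simulated data.

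The RGS genes and gene lists were chosen with earlier results of these data known. Named genes were the members, the other RGS genes with a count, from each list those with an unadjusted p-value under 0.05 or otherwise up to 4 of the most abundant, the 5 genes most and 5 least like *Rgs4*, and checks of the labels. *Gnai3*, *Gnao1*, *Gnaq*, *Gnas*, *Rgs7bp*, *Plcb4*, *Ado*, and *Th* were added after their values were seen. Alternatives were RLE and upper-quartile normalization, other filters on low counts, DESeq2 (1.42.0), limma-voom (limma 3.58.1), edgeR's likelihood ratio test, another gene length, and leaving out each library. The division by *Xist* and *Ddx3y* counts, the neighbours of *Rgs4*, and the genes like *Rgs5* were chosen after seeing the data. Some genes that the rule names are not reported here. RGS proteins were not measured, and no protein sequence was used here.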

Additional observations from a re-analysis of the deposited data

How the results depend on the processing

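Called genes numbered 60 with DESeq2 and 40 with the likelihood ratio test of edgeR against 0, and 0 to 4 when 1 library was left out. *Rgs4* was among those called by DESeq2 and by the likelihood ratio test. It was chosen by its fold change in this comparison, so nothing is read from these calls. In the partner lists, 2 genes were called with DESeq2 and 2 with the likelihood ratio test, and 8 to 24 had an unadjusted p-value under 0.05 when 1 library was left out (8 without control replicate 6, 24 without *Hif1aCKO* replicate 3). The 2 genes of these lists called with DESeq2 were the transcription factors *Isl1* and *Gata2*, and no R7 partner or G protein gene was among them. The log2 fold change of *Rgs4* ranged from -2.00 to -0.97 when 1 library was left out, was -0.92 in the libraries with *Xist* counts, and was -1.58 to -1.51 with the other normalizations, filters, and tests. That of *Rgs5* was -2.63 with limma-voom. *Rgs12* was at 0.02 without control replicate 5 and -0.33 without control replicate 6. With the longest transcript as length, 2 members changed rank. The median of the members was -0.37 to -0.13 when 1 library was left out (-0.37 without *Hif1aCKO* replicate 5, -0.13 without *Hif1aCKO* replicate 4). Where 1 control was left, it was assumed to vary like the other libraries. With 2 controls that differ as they do for *Rgs4*, the size of its difference is poorly fixed, and *Rgs8* lies at the limit of these counts. No paired analysis was possible because the groups share only replicate number 5.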

Other observations

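*Rgs4* and *Rgs5* are neighbours on chromosome 1, where 5 of the measured members lie. *Nuf2*, a kinetochore gene 210013 bases from *Rgs4*, had 1065 and 863 normalized counts in controls and 1097, 1296, and 1167 in *Hif1aCKO* libraries. *Hsd17b7*, an enzyme of cholesterol synthesis 201893 bases away, had 1070 and 1141 against 912, 651, and 842, a log2 fold change of -0.46 (SE 0.19). Neither differed between *Hif1aCKO* libraries as widely as *Rgs5*.

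The wide spread of *Rgs5* among the mutants was rare. Of 10842 genes, 33 (*Rgs5* included) had a *Hif1aCKO* range at least as wide, of which 13 were highest in replicate 3, 14 in replicate 4, and 6 in replicate 5, and genes of the X and Y chromosomes that differ by sex were among them. *Nrk*, a kinase gene of this group, had 389 and 237 normalized counts in controls and 1.07, 323, and 54.5 in *Hif1aCKO* libraries, the same order of mutants as *Rgs5*. *Chgb*, a granin of dense-core vesicles, had 5514 and 8695 against 776, 4732, and 1106, with an r of 0.95 with *Rgs5* over the 5 libraries, at rank 64. The highest values of r with *Rgs5* were those of *Sncaip* (0.997), *Rtn4rl1* (0.992), and *Kcnb2* (0.992). With 5 libraries, 63 genes had an r with *Rgs5* of at least 0.95, so such values are common here. The genes named in this paragraph were chosen after their values were seen.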
